A study of Homo sapiens with 4 samples.

Results

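Neuroendocrine and neuronal structural genes were compared between 320-IWR cells, a tankyrase inhibitor-resistant line, and COLO-320DM cells, the human colon cancer line from which it was made. The 43 genes were given as a list of symbols, and every probe set annotated to exactly 1 of these symbols was taken. All 43 genes were measured, by 93 of the 54613 probe sets tested, among 19775 genes named in all. 320-IWR cells had been grown under continuous exposure to IWR-1, an inhibitor of tankyrase, the enzyme that PARylates Axin and so sustains Wnt/β-catenin signaling. Both lines were grown in dishes to near confluence, and total RNA was hybridized to Affymetrix GeneChip Human Genome U133 Plus arrays, with 2 arrays for 320-IWR and 2 for COLO-320DM. 320-IWR is a single selected line that had not been cloned, so the comparison is of this line with its parent, and whether IWR-1 was in the medium at harvest is not given in the sources used here. Nothing says that the 2 arrays of a line were from separate cultures. Each p-value rests on the spread between the arrays of a line, moderated by limma toward the spread typical of all 54613 probe sets. Part or all of that spread may be technical.

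Neuroendocrine cells store peptides and amines in dense-core granules. Granins help to pack the granules, and a release machinery shared with neurons (synaptic vesicle proteins, SNARE proteins and RAB3 GTPases) delivers them to the cell surface. Neurons add a specialized cytoskeleton of neurofilaments and microtubule-associated proteins, growth-cone proteins such as GAP43 and the stathmins, and adhesion proteins that join cells at synapses. Several of these proteins, among them chromogranin A and synaptophysin, are used in pathology to recognize neuroendocrine tumors, including those of the gut.

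The 4 arrays had like distributions, with medians of 41.6 and 41.1 intensity units in 320-IWR and 41.8 and 41.0 in COLO-320DM. The log2 values of the arrays of a line correlated at 0.991 in 320-IWR and 0.991 in COLO-320DM. The labelled cell type was checked against 13 genes of colorectal epithelium. CDX2, the intestinal homeobox factor, had 2723 and 2790.2 units in 320-IWR and 3403 and 3263 units in COLO-320DM. EPCAM, CDH1, KRT19 and FABP1 were above the array median on no array, so these defining epithelial markers did not stand out from dim probe sets in either line. The keratins KRT8 and KRT18 were lower in 320-IWR (-2.26 and -1.67 on the log2 scale, with limma adjusted p = 0.0155 and 0.0322) and KRT20 was higher (1.78, adjusted p = 0.0412). The epithelial list summed to 3774 and 3853 units in 320-IWR, against 5658 and 5472 units in COLO-320DM. CDX2 made up most of each sum. By the brightest probe sets, 7 of the 13 genes had a positive and 6 a negative log2 fold change (median 0.035). None of the measured leukocyte, fibroblast and endothelial genes (4, 6 and 5) was called by limma. An unadjusted p under 0.05 was found in 0, 1 and 0 of their probe sets, against 9.71% of all. These lists summed to 249 to 303, 408 to 422 and 150 to 172 units in 320-IWR, against 212 to 255, 435 to 436 and 149 to 164 units in COLO-320DM. A call compares the lines and cannot show whether such cells were present in both. Of the leukocyte, fibroblast and endothelial genes, 2, 3 and 1 were above the array median on every array. Most of the leukocyte sum was PTPRC, with 218 and 172 units in 320-IWR and 179 and 135 units in COLO-320DM.

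Of the 43 genes, 2 rose in 320-IWR, 1 fell, and the other 40 did not pass the test. GRIP1, a scaffold protein of glutamatergic synapses, and SLITRK5, a synaptic adhesion receptor, were 5.15-fold and 5.02-fold higher in 320-IWR. GAP43, the membrane phosphoprotein of growing axon tips, was 20.04-fold lower. Each is a ratio taken from the mean log2 values of the measured intensities. The low side of GAP43 and of GRIP1 was dim and cannot be told apart from background, so the size of these ratios is uncertain. A probe set was called where limma gave a Benjamini-Hochberg adjusted p under 0.05 over all 54613 probe sets and the lines differed at least 2-fold. By this rule 2 of the 93 probe sets (2.15%) were called higher and 1 (1.08%) lower, against 0.112% and 0.258% of all probe sets. The members were chosen with earlier results of these data known. These and the following shares therefore describe the list and cannot test whether its genes changed more than others. At least 2-fold differences without a test were found in 5 member probe sets (5.38%) above and 4 (4.3%) below COLO-320DM, against 0.586% and 1.36% of all. Both 320-IWR arrays stood above both COLO-320DM arrays in 30 probe sets (32.3%) and below them in 17 (18.3%), against 19.5% and 16.1% of all. An unadjusted p under 0.05 was found in 24 (25.8%), against 9.71% of all. By the brightest probe set of each gene, 31 genes had a positive and 12 a negative log2 fold change, against 10723 and 9050 of all named genes. The median was 0.08, against 0.02 over all named genes. For the 17 members with no probe set above the array median on any array, the sign may be that of background. In bulk RNA, fewer cells that express a gene and less of its RNA per cell cannot be told apart.

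**Figure D1:**
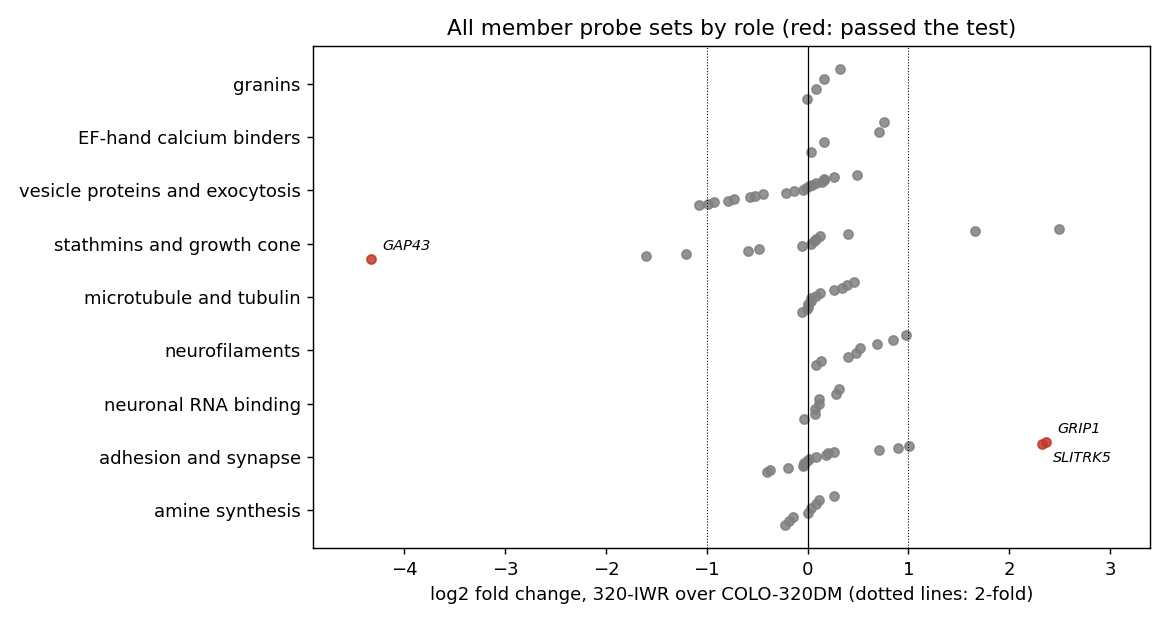
The log2 fold change of 320-IWR over COLO-320DM is plotted on the horizontal axis for each of the 93 probe sets, grouped by the role of the gene on the vertical axis, with red points for those that passed the test. GAP43 lies farthest below 0 at -4.33, while STMN3 (2.49, not called), GRIP1 (2.36) and SLITRK5 (2.33) lie farthest above it.

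GAP43 lies on chromosome 3 (GRCh38.p14 chr3:115623510-115721483). Its probe set 204471_at gave 7.97 and 10.3 units in 320-IWR, against 141 and 234 units in COLO-320DM. The lines did not overlap, and the COLO-320DM arrays differed between themselves by more units than the 320-IWR arrays did. The means were 9.14 ± 1.66 in 320-IWR and 188 ± 65.6 in COLO-320DM (SD, n = 2 each). The log2 fold change, taken between mean log2 values, was -4.33 (SE 0.29, limma adjusted p = 0.0197). Its place among all probe sets was the 14.5 percentile in 320-IWR and the 75.8 percentile in COLO-320DM. The other probe sets of GAP43 moved the same way by less and were not called: 216963_s_at had 30.6 and 33.8 units in 320-IWR, against 40.1 and 50.0 units in COLO-320DM (log2 fold change -0.48, limma adjusted p = 0.434). Probe set 216967_at had 8.51 and 9.74 units in 320-IWR, against 11.0 and 17.1 units in COLO-320DM (-0.59, limma adjusted p = 0.565). The fall of GAP43 thus rests on 1 of its 3 probe sets. No 320-IWR array reached a COLO-320DM array in any of them, an order held by 16.1% of all probe sets. Probe sets of 1 gene are also not independent.

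GRIP1 lies on chromosome 12 (GRCh38.p14 chr12:66347431-67069338). Its probe set 235957_at gave 91.8 and 89.4 units in 320-IWR, against 17.05 and 18.2 units in COLO-320DM. The arrays of each line lay close together and the lines were far apart, with means of 90.6 ± 1.71 in 320-IWR and 17.6 ± 0.786 in COLO-320DM (SD, n = 2 each). The log2 fold change was 2.36 (SE 0.12, 5.15-fold, limma adjusted p = 0.0104). The second probe set of GRIP1, 214018_at, did not follow, with 13.1 and 9.81 units in 320-IWR and 14.2 and 11.8 units in COLO-320DM (log2 fold change -0.19, limma adjusted p = 0.919). Which transcripts of the gene each probe set detects was not tested.

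SLITRK5 lies on chromosome 13 (GRCh38.p14 chr13:87671371-87679616). Its probe set 214930_at gave 278 and 269 units in 320-IWR, against 51.1 and 58.0 units in COLO-320DM. The means were 273 ± 6.25 in 320-IWR and 54.6 ± 4.85 in COLO-320DM (SD, n = 2 each). The log2 fold change was 2.33 (SE 0.13, 5.02-fold, limma adjusted p = 0.0128). Both 320-IWR arrays were the higher in this probe set, as in 19.5% of all, and in the second one, 215469_at. That probe set had 17.3 and 23.2 units in 320-IWR, against 10.8 and 9.25 units in COLO-320DM (log2 fold change 1.01, limma adjusted p = 0.179).

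The calls of GRIP1 and SLITRK5 were lost whichever array was left out, and that of GAP43 without either 320-IWR array. Leaving out an array leaves its line with 1, whose spread is then taken from the other line. Without either 320-IWR array all 3 were lost (adjusted p between 0.167 and 0.216) and limma called no probe set at all, while 3756 and 3502 probe sets had an unadjusted p under 0.05. GAP43 stayed called without either COLO-320DM array (adjusted p = 0.0382 and 0.0475), whereas GRIP1 (0.066 and 0.0589) and SLITRK5 (0.0731 and 0.0589) did not. The differences themselves kept their size with an array left out, at -4.69 to -3.96 for GAP43, 2.32 to 2.41 for GRIP1 and 2.24 to 2.42 for SLITRK5 on the log2 scale. Adding 64 units to every intensity also ended the calls: the log2 fold change was then -1.76 for GAP43, 0.92 for GRIP1 and 1.51 for SLITRK5 (limma adjusted p = 0.172, 0.0647 and 0.0647).

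The DNA upstream of the called genes is shown because these are the members whose RNA level passed the test. Promoter windows from RefSeq, of 250 bases before to 50 after a transcript start on GRCh38.p14, were found for GAP43 (1 window) and SLITRK5 (3 windows). They were searched on both strands for the E-box letters CAGCTG, the TCF/LEF core CTTTGA, the cyclic AMP response element TGACGTCA and its shorter form TGACG, which lies within it, and the RE1 half-site letters TTCAGCACC and GGACAGCGC. Of 35116 promoters, these were held by 17.9%, 12.9%, 1.85%, 24.6%, 0.376% and 0.581%. The GAP43 window, chr3:115623260-115623559 on the plus strand, held none of them. Of the SLITRK5 windows, the one at chr13:87671121-87671420 held none, the one at chr13:87672339-87672638 held TGACG on the minus strand with its first base at -247 from the start, and the one at chr13:87672974-87673273 held CAGCTG at -173. The GAP43 window and the last SLITRK5 window are printed 5′ to 3′, with the E-box in capitals. A match of letters is a description and not a measured site.
GAP43: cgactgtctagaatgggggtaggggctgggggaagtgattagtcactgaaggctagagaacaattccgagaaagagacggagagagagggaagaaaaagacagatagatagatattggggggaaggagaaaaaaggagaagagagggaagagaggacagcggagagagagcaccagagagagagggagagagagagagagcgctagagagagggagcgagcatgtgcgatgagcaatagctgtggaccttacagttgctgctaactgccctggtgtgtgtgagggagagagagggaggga
SLITRK5: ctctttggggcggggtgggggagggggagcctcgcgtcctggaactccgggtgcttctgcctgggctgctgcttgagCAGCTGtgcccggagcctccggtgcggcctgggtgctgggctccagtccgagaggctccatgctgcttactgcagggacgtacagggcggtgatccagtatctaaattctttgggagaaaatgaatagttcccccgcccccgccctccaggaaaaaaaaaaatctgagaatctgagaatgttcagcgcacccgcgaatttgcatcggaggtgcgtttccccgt

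The genes next to the called members were listed as well, taking the 3 measured genes on each side and their brightest probe sets. None of these 18 neighbours was called by limma, and 3 had an unadjusted p under 0.05, against 9.71% of all probe sets. Around GAP43, LSAMP, which encodes a neuronal adhesion protein, had a log2 fold change of -1.76 (limma adjusted p = 0.154), ZBTB20, a zinc finger repressor, had -0.66, and the other 4 lay between -0.07 and 0.19. Around GRIP1 the values ran from -0.61 for DYRK2, a protein kinase, to 0.28. Around SLITRK5 they ran from -0.19 for SLITRK6 to 0.36 for SLITRK1, both members of the same adhesion family.

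**Figure D2:**
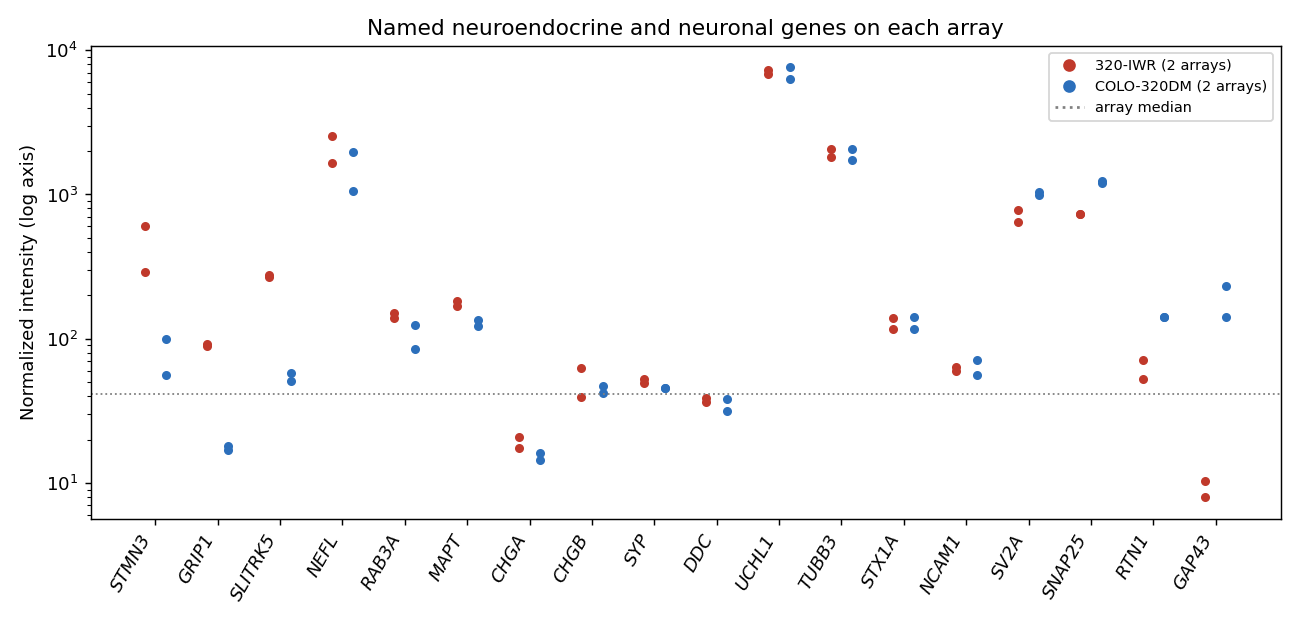
The intensity of the brightest probe set is plotted on a log axis for each of the 18 genes chosen by the naming rule, with the 320-IWR arrays as red points and the COLO-320DM arrays as blue points and the array median as a dotted line. GAP43 stands lower in 320-IWR and GRIP1 and SLITRK5 higher, with no overlap, while UCHL1 and TUBB3 overlap.

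STMN3 and RTN1 differed at least 2-fold by their brightest probe sets and did not pass the test. STMN3, a stathmin that binds tubulin and favors microtubule disassembly, gave 290.4 and 603 units in 320-IWR, against 55.9 and 99.3 units in COLO-320DM by probe set 222557_at. The lines did not overlap, but in both the replicate 2 array was well above the replicate 1 array. The log2 fold change was 2.49 with an SE of 0.45 (limma adjusted p = 0.164), a wider error than for GRIP1 or SLITRK5. This fit took no account of the replicate number. The shift from replicate 1 to replicate 2 seen in both lines is therefore counted in this error. The second STMN3 probe set, 218207_s_at, had 28.6 and 78.4 units in 320-IWR, against 11.6 and 19.5 units in COLO-320DM (log2 fold change 1.66, limma adjusted p = 0.418). RTN1, a reticulon of the endoplasmic reticulum found in neuroendocrine cells, gave 52.9 and 70.8 units in 320-IWR, against 141 and 142 units in COLO-320DM by probe set 210222_s_at (log2 fold change -1.21, SE 0.18, limma adjusted p = 0.115). The second RTN1 probe set, 203485_at, had 37.0 and 66.0 units in 320-IWR, against 141 and 160.3 units in COLO-320DM (-1.60, limma adjusted p = 0.174). Neither RTN1 probe set had overlapping lines, and both 320-IWR arrays were the lower in 16.1% of all probe sets.

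UCHL1, the ubiquitin hydrolase that is abundant in neurons and neuroendocrine cells, was at like intensities in both lines. Its probe set 201387_s_at gave 6859.6 and 7349.6 units in 320-IWR and 6317 and 7599.9 units in COLO-320DM (log2 fold change 0.04, limma adjusted p = 1). The remaining stathmins, STMN2 and STMN4, had log2 fold changes of 0.40 and 0.09 by their brightest probe sets. The group of stathmins and growth-cone genes also held RTN1 and UCHL1, for 6 genes in all. Its 13 probe sets included 1 call, in the lower direction (0.258% of all probe sets). An unadjusted limma p under 0.05 was found in 7 (9.71% of all). Both 320-IWR arrays were the higher in 4 (19.5% of all) and the lower in 5 (16.1% of all). Both RTN1 probe sets were among the 7 and among the 5.

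None of the 4 granins, the packing proteins of dense-core granules, was called by limma, and 0 of their 4 probe sets had an unadjusted p under 0.05. CHGA, chromogranin A, gave 17.5 and 20.9 units in 320-IWR, against 14.4 and 16.1 units in COLO-320DM (log2 fold change 0.32, limma adjusted p = 0.625). CHGB, chromogranin B, gave 39.5 and 62.3 units in 320-IWR and 42.2 and 46.8 units in COLO-320DM, where the lines overlapped (0.16, limma adjusted p = 0.972). CHGA lay under the array median on every array of both lines. SCG2 and SCG3, the secretogranins II and III, also lay under it throughout, with log2 fold changes of 0.08 and -0.0041. The deposited values carry no detection call, so a dim probe set cannot be told apart from one that measured only background.

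The 3 EF-hand calcium binders had no call (0 of 4 probe sets at an unadjusted p under 0.05), with log2 fold changes of 0.16 for CALB2 (calretinin) and 0.04 for SCGN (secretagogin). CALB1 (calbindin) was chosen for description after its values were seen. Its 205625_s_at probe set gave 34.9 and 117 units in 320-IWR and 36.9 and 41.3 units in COLO-320DM. Only the replicate 2 array of 320-IWR stood high, and the second CALB1 probe set had the same form, with 32.5 and 125 units in 320-IWR and 43.3 and 32.8 units in COLO-320DM.

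Genes of vesicles and exocytosis gave no call among 20 probe sets of 10 genes, 8 of which had an unadjusted p under 0.05, against 9.71% of all probe sets (smallest adjusted p = 0.104). SNAP25, the SNARE protein of the plasma membrane, gave 729 and 731 units in 320-IWR, against 1230.5 and 1199 units in COLO-320DM by probe set 202508_s_at (log2 fold change -0.73, SE 0.11, limma adjusted p = 0.125). The other SNAP25 probe sets had log2 fold changes of -0.57 and -0.93, again with both 320-IWR arrays below both COLO-320DM arrays. SV2A, a glycoprotein of synaptic vesicles, gave 776 and 643 units in 320-IWR, against 997 and 1038 units in COLO-320DM (-0.53, limma adjusted p = 0.331). RAB3B, a GTPase of secretory vesicles singled out after its values were seen, was lower on both 320-IWR arrays in all 5 of its probe sets, with log2 fold changes from -1.08 to -0.21. At its brightest probe set RAB3B had 40.2 and 44.8 units in 320-IWR, against 66.2 and 81.4 units in COLO-320DM (-0.79, limma adjusted p = 0.194).

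The other member genes of the release machinery did not share this order of the lines. RAB3A, the related GTPase of synaptic vesicles, gave 139 and 151 units in 320-IWR, against 84.6 and 125 units in COLO-320DM (log2 fold change 0.49, limma adjusted p = 0.598). STX1A, the syntaxin partner of SNAP25, gave 116 and 140.0 units in 320-IWR and 118 and 142 units in COLO-320DM (-0.02, limma adjusted p = 1). SYP, synaptophysin, gave 53.0 and 49.5 units in 320-IWR, against 45.9 and 45.9 units in COLO-320DM (0.16, limma adjusted p = 0.843). The vesicle genes SYN1 (synapsin I), SYT1 and SYT4 (synaptotagmins, calcium sensors of release) and VAMP2 (a vesicle SNARE) had log2 fold changes between -0.05 and 0.26 by their brightest probe sets. In this group both 320-IWR arrays were the lower in 9 of 20 probe sets (16.1% of all probe sets), all 9 of them of SNAP25, SV2A and RAB3B. Both were the higher in 4 (19.5% of all). In the list of further vesicle release genes, given below, both were the lower in 14 of 67 probe sets and the higher in 16. SV2C was among the lower (-0.71 by its brightest probe set, limma adjusted p = 0.196). Probe sets of the same gene are not independent.

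Cytoskeletal genes were not called. In limma, 2 of 12 microtubule and tubulin and 3 of 8 neurofilament probe sets had an unadjusted p under 0.05, against 9.71% of all. NEFL, the light neurofilament chain, gave 1665 and 2560.4 units in 320-IWR and 1058 and 1972 units in COLO-320DM by probe set 221805_at, where the lines overlapped (log2 fold change 0.52, SE 0.37, limma adjusted p = 0.827). In its other probe sets both 320-IWR arrays were the higher, as in 19.5% of all probe sets. Probe set 221916_at of NEFL had 1222 and 1687 units in 320-IWR, against 597 and 888 units in COLO-320DM (0.98, limma adjusted p = 0.318). Probe set 221801_x_at of NEFL had 211 and 274 units in 320-IWR, against 111 and 161 units in COLO-320DM (0.85, limma adjusted p = 0.342). The replicate 2 array was above the replicate 1 array of the same line in all 3, as it was for STMN3. The brightest log2 fold changes of INA (internexin alpha), NEFH and NEFM (the heavy and medium chains) were 0.48, 0.40 and 0.08.

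MAPT, the microtubule-binding protein tau, gave 183 and 170.0 units in 320-IWR, against 134 and 123 units in COLO-320DM by probe set 203929_s_at (log2 fold change 0.46, limma adjusted p = 0.329). The log2 fold changes of all 6 MAPT probe sets ran from -0.06 to 0.46. TUBB3, the neuronal β-tubulin, gave 1806 and 2083 units in 320-IWR and 1742 and 2074 units in COLO-320DM by probe set 213476_x_at (0.03, limma adjusted p = 1). Both TUBB3 probe sets are of the _x_at kind, whose probes can also match other transcripts, so related tubulins may share in these values. DCX (doublecortin) and MAP2, proteins of young neurons and of dendrites, lay under the array median on every array.

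**Figure D3:**
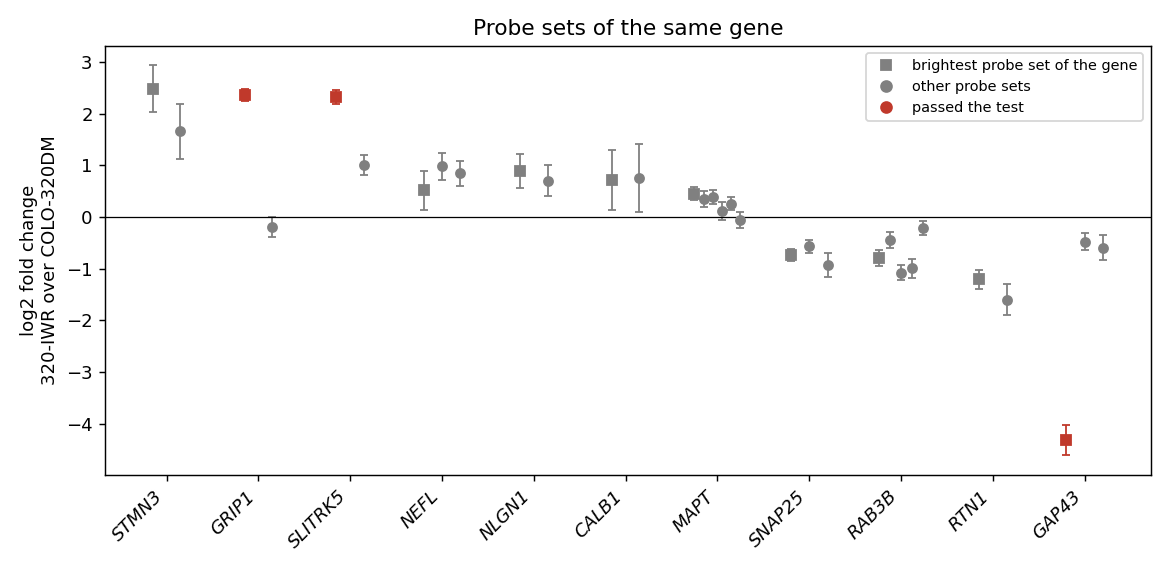
The log2 fold change of 320-IWR over COLO-320DM is plotted on the vertical axis for each probe set of 11 genes measured by more than 1 probe set and chosen after their values were seen, with squares for the brightest probe set, red for those that passed the test and bars for the limma SE. The probe sets of GAP43 spread from -4.33 to -0.48, those of RAB3B all lie below 0, and those of GRIP1 lie on both sides of it.

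Adhesion and synapse genes held both of the calls in the higher direction, GRIP1 and SLITRK5, among 17 probe sets of 6 genes. Of all probe sets, 0.112% were called higher. In this group 4 probe sets had an unadjusted limma p under 0.05 (9.71% of all). Both 320-IWR arrays were the higher in 8 (19.5% of all) and the lower in 2 (16.1% of all). NCAM1, the neural cell adhesion molecule also known as CD56, gave 63.6 and 60.2 units in 320-IWR and 55.9 and 71.5 units in COLO-320DM by probe set 209968_s_at (log2 fold change -0.03, limma adjusted p = 1). The lines overlapped, and the 7 NCAM1 probe sets ran from -0.40 to 0.20. NLGN1, a postsynaptic neuroligin chosen after its values were seen, had 32.0 and 59.1 units in 320-IWR, against 20.7 and 26.5 units in COLO-320DM (0.89, limma adjusted p = 0.490). L1CAM and NRCAM, adhesion proteins of axons, had brightest log2 fold changes of 0.08 and 0.26.

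Genes of amine synthesis and neuronal RNA binding had no call by limma, and 0 of their 8 and 7 probe sets had an unadjusted p under 0.05. DDC, the decarboxylase that makes dopamine and serotonin, gave 36.5 and 38.8 units in 320-IWR and 38.3 and 31.6 units in COLO-320DM (log2 fold change 0.11, limma adjusted p = 0.956). TH, DBH and TPH1, the other amine enzymes, had brightest log2 fold changes of -0.22, 0.04 and -0.15. All 4 amine enzymes lay under the array median on every array. ELAVL3 and ELAVL4, neuronal RNA-binding proteins, had 0.28 and -0.03.

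Of the 30 genes measured by more than 1 probe set, 20 had the same sign in all of them, and 13 genes had a single probe set. Over all 43 genes, 19 had a probe set above the array median on all 4 arrays and 17 had none above it on any array. The genes under the median on every array included the granins CHGA, SCG2 and SCG3, while SNAP25, SV2A, NEFL, TUBB3 and UCHL1 were above it on all arrays of both lines.

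Further genes of the same systems were counted from 6 lists chosen by role, with earlier results of these data known. Their counts are therefore no independent support. Of their 124 genes, 115 were measured by 235 probe sets. Among them 2 genes rose and 2 fell, against 0.243% and 0.526% of all named genes with a called probe set, and the median log2 fold change was 0.02 by the brightest probe set. Both that fell belonged to the 11 granule and prohormone genes. CPE, carboxypeptidase E, which trims prohormones, gave 114 and 121 units in 320-IWR, against 997 and 1222 units in COLO-320DM by probe set 201116_s_at (log2 fold change -3.23, limma adjusted p = 0.0087). Its second probe set was called too, at -3.81. QPCT, the glutaminyl cyclase that forms pyroglutamate at peptide ends, gave 13.6 and 19.3 units in 320-IWR, against 925 and 1149 units in COLO-320DM (-6.00, limma adjusted p = 0.0081). Its 320-IWR values lay under the array median and cannot be told apart from background, so the size of this difference is uncertain. For both genes the lines were far apart on every array.

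The genes that rose were CNTN3, a contactin among the 22 further adhesion genes, and PROX1, a homeobox factor among the 12 measured regulators. CNTN3 gave 30.2 and 31.1 units in 320-IWR, against 6.06 and 5.48 units in COLO-320DM (log2 fold change 2.41, limma adjusted p = 0.0112). PROX1 was called by 1 of 4 probe sets, 229376_at, with 52.6 and 46.3 units in 320-IWR, against 14.2 and 10.5 units in COLO-320DM (2.02, limma adjusted p = 0.0459). Its brightest probe set was not called (0.39, limma adjusted p = 0.840). CNTN3 lay under the array median on all 4 arrays, and both rises were lost when any array was left out. The filter on dim probe sets removed both of the called probe sets. The further cytoskeletal list also held neuronal genes of other kinds, such as ELAVL2, ENO2, GNAO1 and RTN4. No call was made by limma among 30 further vesicle release genes, the 27 genes of this cytoskeletal list and 13 enteroendocrine hormone genes. Of their probe sets, 15 of 67, 11 of 60 and 3 of 16 had an unadjusted p under 0.05, against 9.71% of all.

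**Figure D4:**
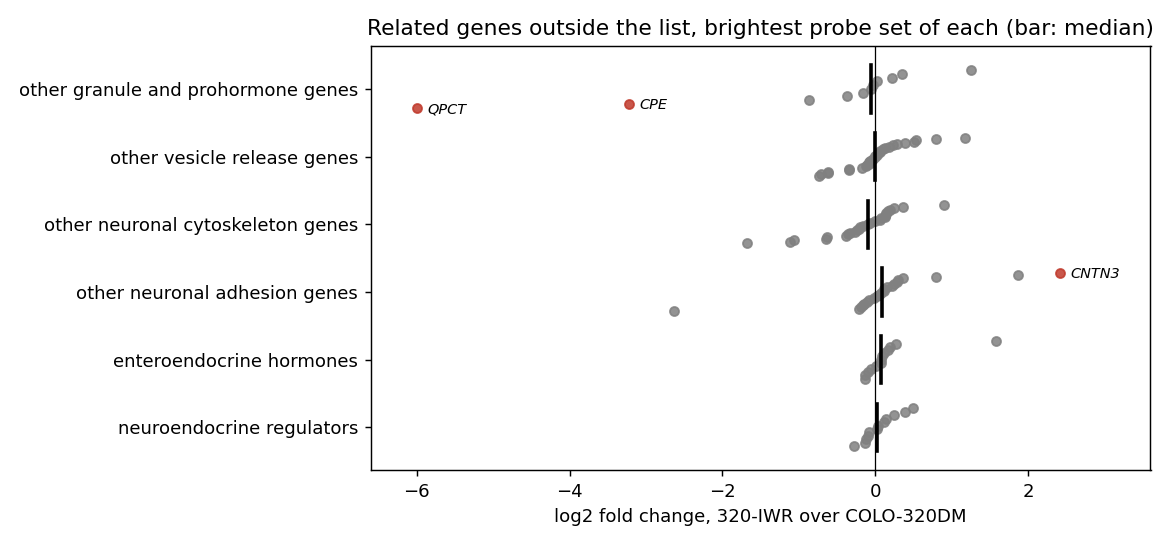
The log2 fold change of the brightest probe set is plotted on the horizontal axis for each gene of the 6 further lists, with red points for those that passed the test and black bars at the list medians. QPCT (-6.00) and CPE (-3.23) lie far below 0 in the granule list, CNTN3 (2.41) lies above it.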

How the data were processed

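Arrays were normalized by the authors with GeneSpring GX, and the submitters' processing notes name RMA. The deposited values are linear intensities, 1 per probe set and array, without detection calls. Of 54675 probe sets, 62 controls were left out. Gene symbols came from the platform annotation: 41091 probe sets had 1 symbol, 1801 several and 11721 none, and only those with 1 were named. Values were taken as log2 without further normalization and tested with limma 3.58.1 (R 4.3.3; lmFit and eBayes, constant prior, prior degrees of freedom 2.78) on all 4 arrays, with Benjamini-Hochberg adjustment over 54613 probe sets. The script was tested on simulated data. The number of arrays limits the precision: with 2 against 2, an exact two-sided permutation test of a single value cannot go below p = 0.333. The brightest probe set of a gene has the highest mean log2 value. Where an intensity is given as ± SD, it is on the linear scale. Fold changes are taken from mean log2 values and can differ slightly from ratios of the linear means. Members were named with every array's value if a probe set was called, if the brightest probe set differed at least 2-fold, if they were among the 10 brightest members, or if they were routine diagnostic markers. From the further lists, called genes were named. The members, the further lists and the marker lists were chosen with earlier results of these data known. Alternatives were a replicate block, each array left out, an added offset of 64, normalization by cyclic loess or to equal medians of the arrays, removal of dim probe sets (those with a mean log2 under 6 in both lines), a trended robust prior and no fold limit.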

Additional observations from a re-analysis of the deposited data

How the results depend on the processing

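Higher, lower and gene counts of the members (2 probe sets, 1 probe set and 3 genes) and the 4 called genes of the further lists all went to 0 when 64 units were added to every intensity. With each array left out in turn they ranged from 0 to 0 probe sets higher, 0 to 1 lower, 0 to 1 member genes and 0 to 2 further genes. A line left with 1 array is then assumed to vary like the other line. With the replicate number as a block, which the sources do not give as a shared culture or day, the member counts were 3 higher, 1 lower and 4 genes. STMN3 was gained (limma adjusted p = 0.0195, SE 0.099), and the further genes numbered 6. GRIP1 and SLITRK5 had SEs of 0.086 and 0.099 with the block. Over all probe sets 576 were called with it, against 202 in the main fit. The deviations of same-numbered arrays correlated at 0.66. Cyclic loess, equal array medians, the trended robust prior and no fold limit left the member counts at 2, 1 and 3, and the further genes at 5, 5, 4 and 4. LRRN1 was the gene gained (limma adjusted p = 0.0432 and 0.0448). The filter on dim probe sets kept 15 of 43 member genes. The called members passed it only through the line in which they were high, so their counts under it (2, 1 and 3) are no support. Under it 3 further genes were called, without CNTN3 and PROX1 and with LRRN1 (limma adjusted p = 0.0473). The median log2 fold change of the members stayed between 0.04 and 0.12 under every alternative run. Some uncalled values near 0 crossed it when an array was left out: CHGB ranged from -0.17 to 0.49, DDC from -0.027 to 0.25, NCAM1 from -0.21 to 0.15, STX1A from -0.16 to 0.12, TUBB3 from -0.10 to 0.15 and UCHL1 from -0.10 to 0.17. TUBB3 was -0.0022 with cyclic loess. The cause of these shifts was not tested. The alternatives for the further lists were added after their values were seen. Without detection calls, whether the dim probe sets measured RNA or background is unknown.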
